A study of Homo sapiens with 24 samples.

Results

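SW13, an adrenal carcinoma line, was compared in 2 states that differ in the chromatin remodeler it had been given: BRG1, or BRG1-K785R, each beside the transcription factor ERG. Both groups were chosen by their titles, BRG1 ERG replicates 1 and 2 and BRG1-K785R ERG replicates 1 and 2, which are 4 of the 24 libraries of the series and 4 of its 12 SW13 libraries. The other 8 SW13 libraries carried ERG beside a GFP control construct, or BRG1, BRG1-K785R or GFP beside an empty vector (BRG1 Empty, BRG1-K785R Empty, GFP Empty), with 2 libraries a group. Per the labels' protocols, all cells met lentivirus for 48 h and were selected for 2 days with blasticidin and puromycin, the constructs carried a V5 tag, and the duplicates came from separate infections and cultures. The control is GFP in the titles and luciferase in the protocol, and is called GFP below. Each library was a selected pool of infected cells of 1 line, not a clone, with the constructs expressed on top of the line's own genes, and polyA RNA was sequenced as 75-base single reads.

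BRG1, the product of SMARCA4, is a catalytic ATPase of the BAF (SWI/SNF) complex, which uses ATP to slide and evict nucleosomes and so opens enhancers and promoters to transcription factors. SW13 is known for lacking both BRG1 and its paralog BRM, the product of SMARCA2, and for flattening and slowing its division when BRG1 is put back. In BRG1-K785R the lysine of the ATP-binding site is replaced by arginine, so that a full-length protein is present without ATPase activity. ERG is an ETS factor that binds GGAA sites, works in endothelial cells, and is switched on in prostate cancers by fusion to TMPRSS2. The comparison therefore asks which RNAs differed between cells with an active and an inactive remodeler when ERG was present in both.

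Libraries held 25022259 and 25385623 counted reads in BRG1 ERG cells, against 19754265 and 19782432 in BRG1-K785R ERG cells, and 17018 of 26346 genes were tested. Rows of ribosomal RNA precursors took 0.392% and 0.948% of the reads in BRG1 ERG cells, against 0.371% and 0.445% in BRG1-K785R ERG cells. The second BRG1 ERG library is thus above the other 3. The adrenal steroid genes of the line's tissue of origin were mostly silent: CYP11B1, CYP11B2, HSD3B2 and MC2R had 0 reads in all 4 libraries. NR5A1, the master factor of steroid tissue, had 8 and 5 reads in BRG1 ERG cells, against 5 and 9 in BRG1-K785R ERG cells. Levels are CPM (read counts scaled to a common library size, with TMM adjustment). Where a group had 1 to 10 reads in all, the ratio of the summed levels is given with an interval for counting error, since the approximate standard error (SE) of the fit can be narrower than that. Any other log2 change is the fitted value of BRG1 ERG over BRG1-K785R ERG with that SE after the ± sign, and a gene is called at an adjusted p under 0.05 by the quasi-likelihood F test of edgeR, two-sided, with Benjamini-Hochberg adjustment over all genes tested.

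Both constructs were read in all 4 libraries, each at a higher level in BRG1 ERG cells. SMARCA4 stood at 1904.5 and 2213 CPM in BRG1 ERG cells, against 1385 and 1350.4 CPM in BRG1-K785R ERG cells (log2 0.59 ± 0.08, adjusted p = 1.23e-07), and at 35.2 and 32.8 CPM in GFP ERG cells, which lack the construct. ERG stood at 1807.5 and 2099 CPM in BRG1 ERG cells, against 1573 and 1497.5 CPM in BRG1-K785R ERG cells (log2 0.35 ± 0.08, adjusted p = 0.000462). Reads of a construct and of the line's own gene are counted in 1 row. Construct RNA moved with the group for both genes, and its part in the results below was not tested. Without ERG the order was the other way, with SMARCA4 at 2042.5 and 2067 CPM in BRG1 Empty cells, against 2395 and 2226 CPM in BRG1-K785R Empty cells, a difference that missed the threshold (adjusted p = 0.0517). SMARCA2 was read at 2.53 and 2.39 CPM in BRG1 ERG cells, against 0.544 and 0.334 CPM in BRG1-K785R ERG cells (log2 2.47 ± 0.37).

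At an adjusted p under 0.05, 4138 genes were higher and 3854 lower in BRG1 ERG cells, together 47.0% of those tested. The 2 directions parted by size: 1465 genes (8.61%) rose at least 2-fold and 308 (1.81%) fell at least 2-fold, while the median log2 change over all 17018 genes was 0.002. Among protein-coding genes called with a mean of at least 5 CPM over the 4 libraries and groups that did not overlap, the 15 largest falls ran from -1.57 ± 0.09 for KCNJ2 to -2.26 ± 0.16 for TERT on the log2 scale. The 15 largest rises were SAMD9L, XAF1, GJA5, APOL3, RSAD2, SAMD9, BST2, OAS1, IFI44, OASL, IFI44L, IFIT3, APOL1, KIAA1210 and DDX60, most with too few reads in BRG1-K785R ERG cells for the fitted size to be read.

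**Figure D1:**
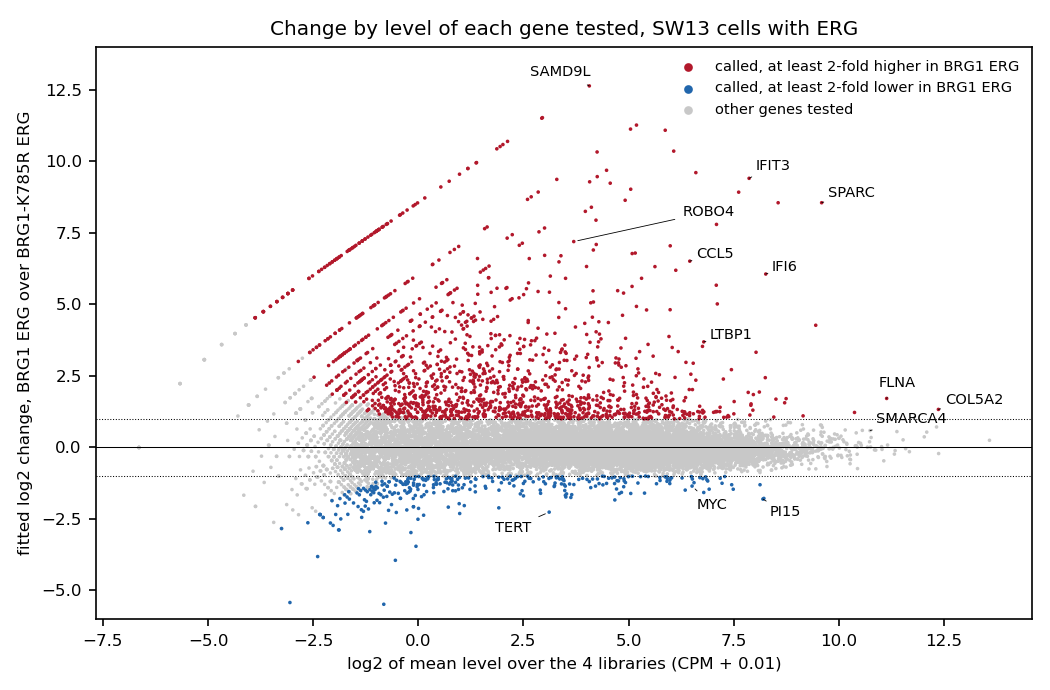
Each point is a gene tested, with the log2 of its mean level over the 4 libraries on the x axis (CPM + 0.01) and its fitted log2 change, BRG1 ERG over BRG1-K785R ERG, on the y axis. Red points (1465) reach far above the line and blue points (308) stay mostly within a few log2 units below it, and the straight rows of red points at the left are genes with 0 or few reads in BRG1-K785R ERG cells, whose fitted change depends on the fit's prior count.

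Members of a list of 34 interferon-stimulated genes made up 9 of the 15 largest rises. Interferons are secreted alarm proteins of the antiviral response. They act through JAK kinases and a factor complex that holds IRF9, which binds an element of repeated GAAA (the interferon-stimulated response element, ISRE). Of 34 interferon-stimulated genes tested, 33 were higher and 0 lower, with a median log2 change of 6.0, or 5.81 with the genes that had 0 reads in BRG1-K785R ERG cells set at their lower bound. Over all genes tested, 24.3% were called higher and 22.6% lower. Summed over the list, the level was 4627 and 4091 CPM in BRG1 ERG cells, against 439 and 426 CPM in BRG1-K785R ERG cells and 466 and 470.0 CPM in GFP ERG cells. Both BRG1 ERG libraries stood far above the 4 other libraries with ERG, whose sums lay close together.

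The promoters of 5 of these genes, taken from RefSeq (GRCh38.p14), are shown because the motif they share was searched for: 170 bases up to the transcription start, 5′ to 3′ on the gene's strand, with each match to GAAA, any 2 bases, GAAA on either strand in capitals. The 2 matches of BST2 overlap.
BST2, chr19:17405631-17405800, minus strand: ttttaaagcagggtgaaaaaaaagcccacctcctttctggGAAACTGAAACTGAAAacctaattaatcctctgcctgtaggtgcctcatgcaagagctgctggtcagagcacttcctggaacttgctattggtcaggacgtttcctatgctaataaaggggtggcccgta
IFI44L, chr1:78620278-78620447, plus strand: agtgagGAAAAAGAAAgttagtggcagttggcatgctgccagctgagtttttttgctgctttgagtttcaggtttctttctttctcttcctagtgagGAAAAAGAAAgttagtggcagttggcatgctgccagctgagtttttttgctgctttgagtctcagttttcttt
IFIT3, chr10:89327827-89327996, plus strand: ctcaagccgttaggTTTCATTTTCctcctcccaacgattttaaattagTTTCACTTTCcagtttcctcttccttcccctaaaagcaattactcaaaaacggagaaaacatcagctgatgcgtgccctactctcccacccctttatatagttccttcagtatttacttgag
IFIT1, chr10:89392453-89392622, plus strand: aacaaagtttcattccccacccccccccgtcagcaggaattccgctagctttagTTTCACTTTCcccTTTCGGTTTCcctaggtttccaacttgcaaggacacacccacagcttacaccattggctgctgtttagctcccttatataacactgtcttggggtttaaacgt
DDX60, chr4:168318753-168318922, minus strand: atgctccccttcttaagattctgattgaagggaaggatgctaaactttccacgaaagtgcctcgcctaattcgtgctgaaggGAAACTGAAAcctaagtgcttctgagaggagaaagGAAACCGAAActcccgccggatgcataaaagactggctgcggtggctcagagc

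The interferon motif (GAAA, any 2 bases, GAAA) stood in 16 of the 24 listed promoters of interferon-stimulated genes (66.7%), of 250 bases before to 50 bases after the start. It stood in 6 of the 12 available promoters of the 15 largest rises, 7.65% of the 967 promoters of genes at least 2-fold higher and 1.09% of the 183 promoters of genes at least 2-fold lower. The share was 3.0% over the 11755 promoters of genes tested and 3.65% over all 27305 promoters of the table. The motif was chosen after the values were seen, and a match is a description of letters.

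Among the antiviral effectors with the promoters above, IFIT3, which with IFIT1 binds foreign RNA, stood at 514 and 418 CPM in BRG1 ERG cells, against 0.643 and 0.716 CPM in BRG1-K785R ERG cells (log2 9.41 ± 0.16, adjusted p = 4.02e-30). IFIT1 stood at 429 and 355 CPM in BRG1 ERG cells, against 0.643 and 0.955 CPM in BRG1-K785R ERG cells (log2 8.92 ± 0.16). BST2, the tether that holds budding virions at the membrane, stood at 137 and 132 CPM in BRG1 ERG cells, against 0.0990 and 0.0955 CPM in BRG1-K785R ERG cells, or 2 and 2 reads there, a ratio of 1384.5 with a 95% counting interval of 540.5 to 5083 (adjusted p = 1.05e-27). Groups that did not overlap were a condition for being among the 15 largest rises, which hold IFIT3 and BST2. IFIT1 was chosen after its values were seen, so the gap between groups for these 3 genes is a description. IFI44L, with 946 and 1025 reads in BRG1 ERG cells against 1 and 1 in BRG1-K785R ERG cells, was higher by a ratio of 784 with a 95% counting interval of 217 to 6481. DDX60, an RNA helicase that works with RIG-I, had 1224 and 1217 reads in BRG1 ERG cells, against 2 and 1 in BRG1-K785R ERG cells, a ratio of 648 with a 95% counting interval of 221 to 3142.

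Several rises had few or no reads to compare with. SAMD9L, a brake on translation in infected cells, stood at 33.5 and 33.5 CPM in BRG1 ERG cells with 0 reads in both BRG1-K785R ERG libraries, so it was at least 229.7-fold higher against a floor of 3 counts per library (adjusted p = 1.49e-21). On the same floor XAF1, a partner of the cell-death inhibitor XIAP, was at least 106-fold higher and GJA5, the connexin of arterial endothelium, at least 105-fold higher. The neighbour of SAMD9L, SAMD9, had 2924 and 3130 reads in BRG1 ERG cells, against 0 and 2 in BRG1-K785R ERG cells, a ratio of 2409 with a 95% counting interval of 667 to 19898. RSAD2 (viperin) had 1916 and 1498 reads in BRG1 ERG cells, against 1 and 0 in BRG1-K785R ERG cells, a ratio of 2717 with a 95% counting interval of 487 to 107350.0. OAS1, a synthetase that senses double-stranded RNA, had 1107 and 859 reads in BRG1 ERG cells, against 1 and 0 in BRG1-K785R ERG cells, a ratio of 1565 with a 95% counting interval of 281 to 61835. OASL, a member of the same family, stood at 225 and 162 CPM in BRG1 ERG cells, against 0.297 and 0.191 CPM in BRG1-K785R ERG cells (a ratio of 797 with a 95% counting interval of 433 to 1662). These genes were at or near 0 in GFP ERG cells as well: SAMD9L, XAF1 and RSAD2 had 0 reads in both GFP ERG libraries.

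Genes that carry the interferon signal had smaller fitted changes than the targets above. IRF9 stood at 47.3 and 48.6 CPM in BRG1 ERG cells, against 5.44 and 6.88 CPM in BRG1-K785R ERG cells (log2 2.96 ± 0.13, adjusted p = 4.22e-19). STAT2, its partner, had a log2 change of 0.85 ± 0.08. IRF7 was the 1 member not called, at 0.466 and 1.31 CPM in BRG1 ERG cells, against 1.14 and 1.53 CPM in BRG1-K785R ERG cells. In a list of interferons, their receptors and the sensors above them, written after the values were seen, 9 of 15 genes tested were higher and 0 lower (median log2 0.34). The interferon genes themselves gave almost no reads: IFNA1, IFNG and IFNK had 0 in all 4 libraries, IFNB1 had 0 and 1 reads in BRG1 ERG cells against 0 and 0 in BRG1-K785R ERG cells, and IFNL1 had 6 and 0 in BRG1 ERG cells against 0 and 0 in BRG1-K785R ERG cells. A count of 0 allows up to 3 reads a library, so lower levels were not detectable at this depth. The receptor chains IFNAR1 (80.4 and 78.6 CPM in BRG1 ERG cells, against 75.9 and 73.4 CPM in BRG1-K785R ERG cells) and IFNAR2 were not called.

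Sensors of foreign nucleic acid were among the called members of both lists. TMEM173, which encodes the DNA-signal adaptor STING, stood at 32.3 and 30.9 CPM in BRG1 ERG cells, against 0.445 and 0.334 CPM in BRG1-K785R ERG cells (log2 6.33 ± 0.22, adjusted p = 6.76e-22). TLR3, a receptor of double-stranded RNA, stood at 3.46 and 3.16 CPM in BRG1 ERG cells with 0 reads in both BRG1-K785R ERG libraries, at least 22.7-fold higher. DDX58 (RIG-I) and IFIH1 (MDA5), cytoplasmic RNA sensors, had log2 changes of 3.35 ± 0.09 and 3.50 ± 0.10. MAVS, their shared adaptor, had one of 0.34 ± 0.08, and MB21D1 (cGAS) was not called at -0.13 ± 0.12. The 5 tested genes of the APOL cluster, a list also written after the values were seen, were all higher: APOL3 stood at 71.6 and 74.2 CPM in BRG1 ERG cells with 1 and 0 reads in BRG1-K785R ERG cells, and APOL2 at 115 and 117 CPM in BRG1 ERG cells, against 21.0 and 21.6 CPM in BRG1-K785R ERG cells.

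**Figure D2:**
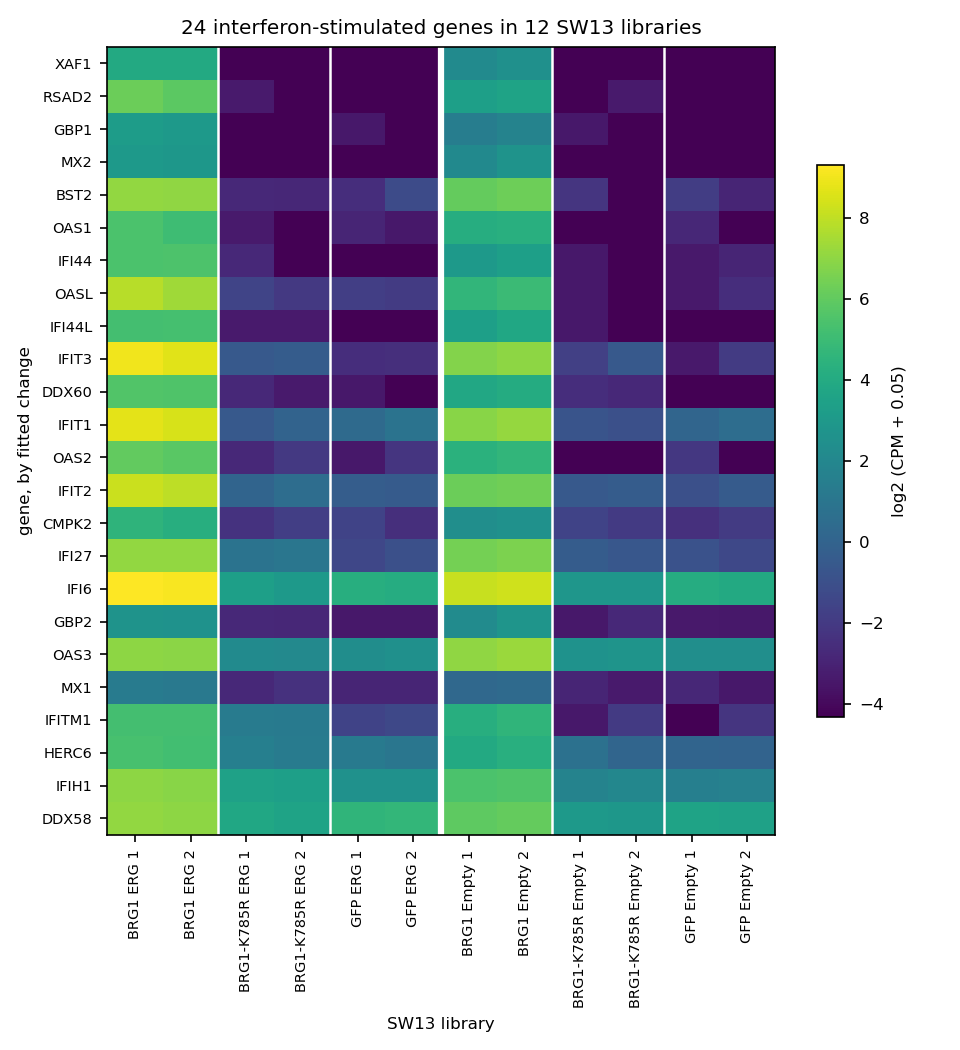
Each row is 1 of the 24 interferon-stimulated genes with the largest fitted changes, of 34 tested, and each column a SW13 library, coloured by log2 (CPM + 0.05), with the ERG groups left of the thick line and the Empty groups right of it. The BRG1 ERG and BRG1 Empty columns are bright for most rows, and the BRG1-K785R and GFP columns are dark for the upper rows with or without ERG.

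Antigen presentation, the display of protein fragments to T cells, was also mostly higher. Of 19 genes tested 16 were higher and 0 lower, with a median log2 change of 1.69. ERAP2, an aminopeptidase that trims peptides, stood at 72.4 and 83.6 CPM in BRG1 ERG cells, against 1.53 and 1.05 CPM in BRG1-K785R ERG cells (log2 5.91 ± 0.15). B2M, the light chain shared by class I molecules, stood at 552 and 557 CPM in BRG1 ERG cells, against 182 and 162 CPM in BRG1-K785R ERG cells (log2 1.69 ± 0.07). PSMB9, a subunit of the immunoproteasome, stood at 24.6 and 24.8 CPM in BRG1 ERG cells, against 5.0 and 4.87 CPM in BRG1-K785R ERG cells (log2 2.32 ± 0.13). HLA-B had a log2 change of 1.73 ± 0.10, though reads may be split between near-identical HLA genes. NLRC5, the activator of class I genes, stood at 9.01 and 10.0 CPM in BRG1 ERG cells, against 0.792 and 0.716 CPM in BRG1-K785R ERG cells (log2 3.65 ± 0.23). TAP2, TAPBP and CD74 were not called.

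Secreted signals of inflammation went both ways, where 24.3% of all genes tested were called higher and 22.6% lower. Of 22 cytokine, chemokine and NF-kB target genes tested 11 were higher and 5 lower (median log2 0.65, or 0.52 with genes at 0 reads set at their bound). CCL5, a chemokine for T cells, stood at 194 and 153 CPM in BRG1 ERG cells, against 2.13 and 1.67 CPM in BRG1-K785R ERG cells (log2 6.51 ± 0.15, adjusted p = 4.05e-27). CXCL10, another interferon-induced chemokine, stood at 2.37 and 2.04 CPM in BRG1 ERG cells with 0 reads in both BRG1-K785R ERG libraries, at least 15.1-fold higher. TNFAIP3, a brake on NF-kB, had a log2 change of 3.06 ± 0.14. Some genes went the other way: SOD2 stood at 49.1 and 48.1 CPM in BRG1 ERG cells, against 69.0 and 68.4 CPM in BRG1-K785R ERG cells (log2 -0.50 ± 0.07). CXCL16 stood at 21.8 and 19.6 CPM in BRG1 ERG cells, against 28.7 and 25.9 CPM in BRG1-K785R ERG cells (log2 -0.40 ± 0.10). The NF-kB subunits NFKB1 and NFKB2 were not called.

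Genes known to return when BRG1 is put back into deficient lines were all higher, at 10 of 10 tested with a median log2 change of 3.0. This list was drawn from knowledge of such lines and is not independent of experiments like this one. Its 11 genes summed to 2849 and 3126 CPM in BRG1 ERG cells, against 999 and 984 CPM in BRG1-K785R ERG cells. The sums were 2068 and 2116 CPM in GFP ERG cells, so as a sum the list was not silent without added BRG1. They were 1496 and 1530 CPM in BRG1 Empty cells, against 2467 and 2820 CPM in GFP Empty cells. In BRG1 Empty against BRG1-K785R Empty cells 9 of 10 were higher and 1 lower. SPARC, a matrix protein of migrating cells, stood at 1418 and 1660.2 CPM in BRG1 ERG cells, against 4.65 and 3.53 CPM in BRG1-K785R ERG cells (log2 8.56 ± 0.13, adjusted p = 8.78e-32). CD44, the hyaluronan receptor, stood at 12.1 and 12 CPM in BRG1 ERG cells, against 0.247 and 0.191 CPM in BRG1-K785R ERG cells (a ratio of 55.2 with a 95% counting interval of 28.9 to 121). CAV1, the caveolar coat protein, stood at 5.13 and 5.78 CPM in BRG1 ERG cells, against 0.792 and 0.621 CPM in BRG1-K785R ERG cells (log2 2.94 ± 0.28). At the low end of the list, CTGF had a log2 change of 0.29 ± 0.07, CDH1 (E-cadherin) of 0.72 ± 0.28, and VIM, the mesenchymal intermediate filament, of 0.99 ± 0.08.

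Genes of the extracellular matrix were higher more often than lower. Of 20 collagen genes tested 14 were higher and 1 lower (median log2 0.78), and of 27 other matrix genes 15 were higher and 1 lower (median log2 0.51). COL5A2, which assembles with other fibrillar collagens, stood at 7039 and 8089.5 CPM in BRG1 ERG cells, against 2952 and 3065 CPM in BRG1-K785R ERG cells (log2 1.33 ± 0.08). Its partner COL5A1 stood at 11.5 and 14.7 CPM in BRG1 ERG cells, against 0.643 and 1.19 CPM in BRG1-K785R ERG cells (log2 3.82 ± 0.22). COL4A1 of basement membranes stood at 7.85 and 9.82 CPM in BRG1 ERG cells, against 0.346 and 0.143 CPM in BRG1-K785R ERG cells (a ratio of 36.4 with a 95% counting interval of 19.6 to 76.4). Its partner COL4A2 stood at 5.28 and 7.66 CPM in BRG1 ERG cells, against 0.198 and 0.0955 CPM in BRG1-K785R ERG cells (a ratio of 44.4 with a 95% counting interval of 20.2 to 122). COL3A1 was the 1 collagen that fell, to 170.4 and 191 CPM in BRG1 ERG cells, against 235 and 231 CPM in BRG1-K785R ERG cells (log2 -0.37 ± 0.08). LAMB1, a laminin chain, stood at 61.8 and 67.9 CPM in BRG1 ERG cells, against 8.81 and 6.16 CPM in BRG1-K785R ERG cells (log2 3.12 ± 0.12). THBS1 (thrombospondin) stood at 28.4 and 30.7 CPM in BRG1 ERG cells, against 3.02 and 3.15 CPM in BRG1-K785R ERG cells (log2 3.26 ± 0.16). LUM fell, with 0.466 and 0.116 CPM in BRG1 ERG cells, against 1.73 and 0.955 CPM in BRG1-K785R ERG cells. FN1 and LOX, also matrix genes, were not called.

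The receptors that grip this matrix and the enzymes that cut it moved the same way more often than not. Of 17 integrin genes tested 13 were higher and 0 lower (median log2 1.21). ITGA3, a laminin receptor chain, stood at 141 and 153 CPM in BRG1 ERG cells, against 33.5 and 38.9 CPM in BRG1-K785R ERG cells (log2 2.02 ± 0.08). ITGA5, the fibronectin receptor chain, stood at 119.6 and 126 CPM in BRG1 ERG cells, against 54.2 and 51.5 CPM in BRG1-K785R ERG cells (log2 1.21 ± 0.08). ITGAV, at 551 and 619 CPM in BRG1 ERG cells, against 609.8 and 565 CPM in BRG1-K785R ERG cells, was not called. Among 25 matrix protease and plasminogen genes 16 were higher and 5 lower (median log2 0.52). MMP2 (gelatinase A) stood at 28.3 and 30.9 CPM in BRG1 ERG cells, against 1.48 and 1.43 CPM in BRG1-K785R ERG cells (log2 4.34 ± 0.17). PLAU (urokinase) stood at 32.9 and 28.3 CPM in BRG1 ERG cells, against 14.5 and 12.8 CPM in BRG1-K785R ERG cells (log2 1.16 ± 0.11). The inhibitor TIMP3 stood at 23.0 and 27.5 CPM in BRG1 ERG cells, against 1.44 and 1.29 CPM in BRG1-K785R ERG cells (log2 4.21 ± 0.20). MMP10, a stromelysin, fell to 55.6 and 57.5 CPM in BRG1 ERG cells, against 94.6 and 80.4 CPM in BRG1-K785R ERG cells (log2 -0.63 ± 0.08).

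Of 22 targets of YAP and of SRF, which report on the actin skeleton, 15 were higher and 3 lower (median log2 0.59). TAGLN, an actin-binding protein of smooth muscle, stood at 219.9 and 179 CPM in BRG1 ERG cells, against 15.5 and 18.8 CPM in BRG1-K785R ERG cells (log2 3.53 ± 0.10). FLNA, the filamin that crosslinks actin, stood at 3363 and 3544 CPM in BRG1 ERG cells, against 1058 and 1047.5 CPM in BRG1-K785R ERG cells (log2 1.71 ± 0.07). TPM1 (tropomyosin) stood at 377 and 351 CPM in BRG1 ERG cells, against 102 and 89.6 CPM in BRG1-K785R ERG cells (log2 1.93 ± 0.08). SRF itself fell, with a log2 change of -0.44 ± 0.07, as did LATS2, a kinase that restrains YAP, with -0.57 ± 0.08. Of 34 genes of TGF-beta, activin and BMP signalling 22 were higher and 4 lower (median log2 0.55). LTBP1, which stores TGF-beta in the matrix, stood at 182 and 228 CPM in BRG1 ERG cells, against 17.0 and 14.8 CPM in BRG1-K785R ERG cells (log2 3.69 ± 0.10). The receptor TGFBR2 stood at 4.97 and 4.31 CPM in BRG1 ERG cells, against 0.792 and 0.859 CPM in BRG1-K785R ERG cells (log2 2.48 ± 0.27), while the ligands TGFB1 (log2 -0.33 ± 0.07) and TGFB3 (log2 -0.37 ± 0.09) fell. GDF15, a stress-induced member of the ligand family, stood at 9.52 and 11.9 CPM in BRG1 ERG cells, against 0.841 and 0.716 CPM in BRG1-K785R ERG cells (log2 3.78 ± 0.28).

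ERG is known to drive genes of endothelial cells. Of 16 endothelial markers tested 13 were higher and 1 lower, with a median log2 change of 3.03 (3.0 with genes at 0 reads set at their bound). In BRG1 Empty against BRG1-K785R Empty cells 12 of the 16 were higher and 2 lower (median log2 2.05), against 32.6% and 34.1% of all genes. ERG, which came from the construct, is itself one of the 13 and, on few reads, one of the 12. The other 18 markers summed to 139 and 164 CPM in BRG1 ERG cells, against 56.4 and 55.3 CPM in BRG1-K785R ERG cells, and to 51.9 and 48.6 CPM in BRG1 Empty cells. ROBO4, a guidance receptor of vessels, stood at 23.3 and 28.2 CPM in BRG1 ERG cells, against 0.0990 and 0.239 CPM in BRG1-K785R ERG cells (a ratio of 151 with a 95% counting interval of 73.2 to 377, adjusted p = 4.29e-20). KDR, the main VEGF receptor, stood at 20.0 and 27.1 CPM in BRG1 ERG cells, against 2.82 and 2.72 CPM in BRG1-K785R ERG cells (log2 3.09 ± 0.20). TIE1, an orphan receptor kinase, stood at 10.1 and 13.2 CPM in BRG1 ERG cells, against 0.495 and 0.621 CPM in BRG1-K785R ERG cells (log2 4.37 ± 0.28). ENG (endoglin) stood at 13.4 and 15.8 CPM in BRG1 ERG cells, against 1.83 and 1.86 CPM in BRG1-K785R ERG cells (log2 2.98 ± 0.19).

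PECAM1, the adhesion molecule of the endothelial junction, stood at 4.59 and 4.43 CPM in BRG1 ERG cells with 0 reads in both BRG1-K785R ERG libraries, at least 30.9-fold higher (adjusted p = 3.66e-12). CDH5 (VE-cadherin) had 67 and 68 reads in BRG1 ERG cells, against 0 and 2 in BRG1-K785R ERG cells, a ratio of 53.7 with a 95% counting interval of 14.6 to 448. TEK, the angiopoietin receptor, was the marker that fell, at 21.6 and 24.1 CPM in BRG1 ERG cells, against 29.0 and 25.3 CPM in BRG1-K785R ERG cells (log2 -0.25 ± 0.10). CLEC14A had 0 reads in all 4 libraries, and CLDN5 and ESAM were not called. The short ETS motif AGGAAGT stood in 4 of the 13 listed endothelial promoters (30.8%), against 7.88% of promoters of genes tested, 12% of those of genes at least 2-fold higher and 8.20% of those of genes at least 2-fold lower. The longer form CCGGAAG stood in none of the 13, and in 4.45% and 4.37% of promoters of genes at least 2-fold higher and lower, against 17.1% of genes tested. CCGGAAG holds a CpG, and the median promoter held 15 CpG among genes at least 2-fold higher, against 25 among genes tested. The median was 23 among genes at least 2-fold lower. Whether CpG content has a part in these shares was not tested. Both motifs were searched on both strands, and both hold GGAA. The promoters of ENG and MMRN2 follow as examples, with the AGGAAGT match in capitals and all else as above.
ENG, chr9:127854659-127854828, minus strand: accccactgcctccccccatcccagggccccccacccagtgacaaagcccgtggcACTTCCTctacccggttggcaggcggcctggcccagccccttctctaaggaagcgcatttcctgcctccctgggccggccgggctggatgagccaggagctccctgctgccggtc
MMRN2, chr10:86957616-86957785, minus strand: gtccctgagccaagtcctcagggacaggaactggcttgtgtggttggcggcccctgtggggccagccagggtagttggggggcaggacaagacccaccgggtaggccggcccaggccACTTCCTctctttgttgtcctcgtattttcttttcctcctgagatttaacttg

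**Figure D3:**
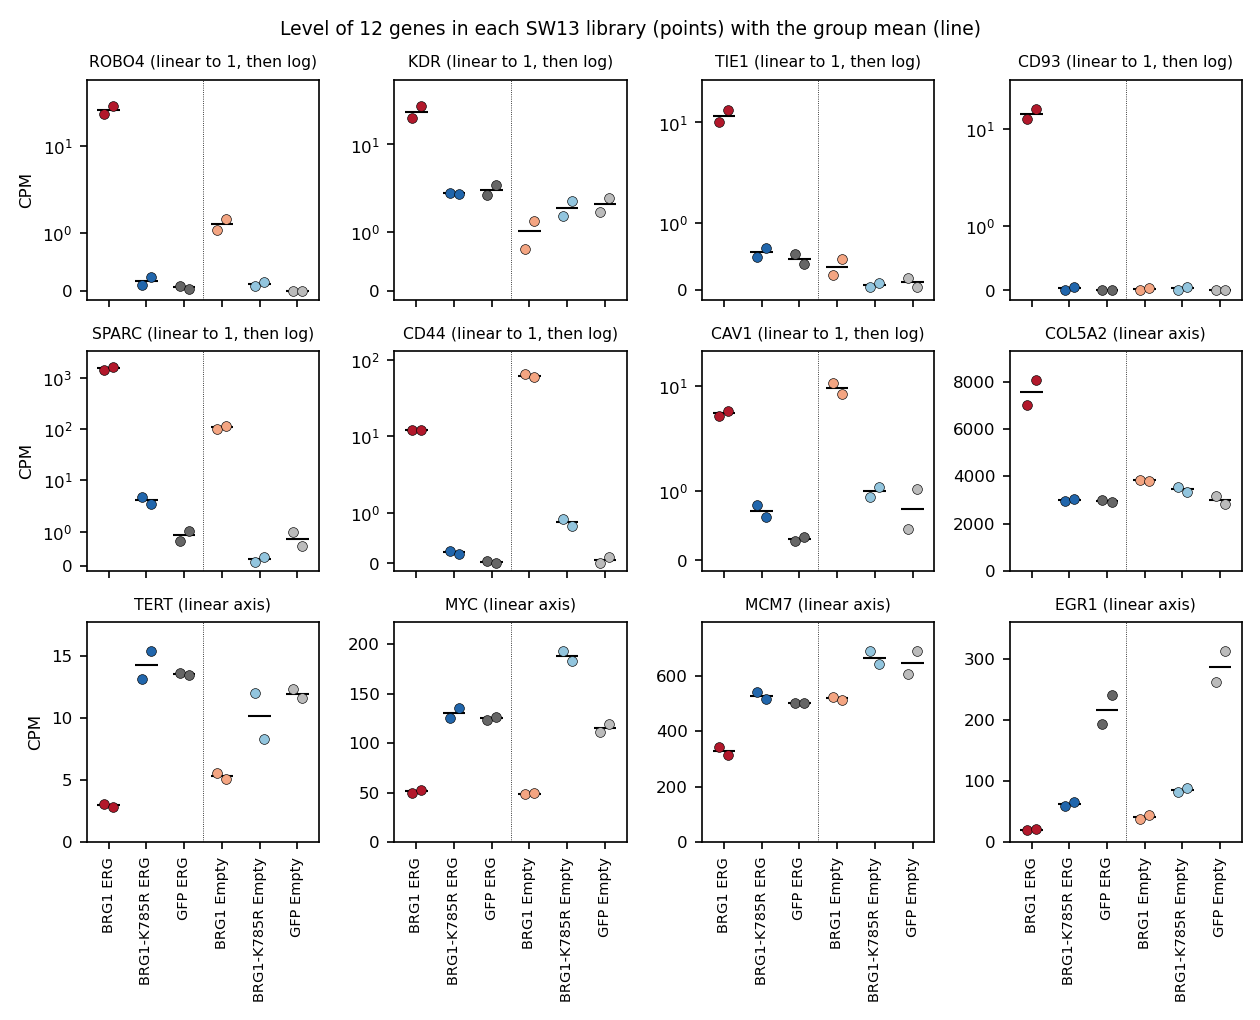
Each panel gives the CPM of 1 gene in the 12 SW13 libraries (points) with the group mean (line), the ERG groups left of the dotted line. ROBO4, KDR, TIE1 and CD93 are high in BRG1 ERG alone among the 6 groups, SPARC, CD44 and CAV1 are high in BRG1 ERG and BRG1 Empty, TERT, MCM7 and EGR1 are lowest in BRG1 ERG, and MYC is as low in BRG1 Empty as in BRG1 ERG.

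With thresholds set after the values were seen, 81 genes had a mean of 5 CPM or more in BRG1 ERG cells and under 0.5 CPM in BRG1-K785R ERG cells, and 0 genes lay the other way round. Of the 81, 13 were in the interferon-stimulated list, and 80 were under 0.5 CPM in GFP ERG cells too. In BRG1 Empty cells 39 of them were at 5 CPM or more, and 10 were under 0.5 CPM: MYOC, EXOC3L2, CD93, PROCR, CD53, CD300LG, FGD5, ARAP3, SLC26A4 and GABRP. CD93, a receptor of endothelial and myeloid cells, stood at 12.7 and 16.1 CPM in BRG1 ERG cells, against 0 and 0.0477 CPM in BRG1-K785R ERG cells and 0 and 0.0377 CPM in BRG1 Empty cells. PROCR, the endothelial protein C receptor, stood at 6.53 and 11.7 CPM in BRG1 ERG cells, against 0.198 and 0.286 CPM in BRG1-K785R ERG cells and 0.465 and 0.0755 CPM in BRG1 Empty cells. FGD5, an endothelial activator of CDC42, stood at 4.93 and 6.55 CPM in BRG1 ERG cells, against 0.0495 and 0.0955 CPM in BRG1-K785R ERG cells and 0.0357 and 0.0755 CPM in BRG1 Empty cells. The thresholds chose these 10 for being low without ERG, so these levels are a description.

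Epithelial genes did not move as one. Of 12 keratins tested 9 were higher and 0 lower (median log2 3.11, or 1.60 with genes at 0 reads set at their bound). KRT8 of simple epithelium stood at 58.9 and 44.7 CPM in BRG1 ERG cells, against 4.6 and 4.68 CPM in BRG1-K785R ERG cells (log2 3.48 ± 0.14). Its partner KRT18 stood at 107 and 74.4 CPM in BRG1 ERG cells, against 16 and 15.1 CPM in BRG1-K785R ERG cells (log2 2.54 ± 0.12). KRT6A, KRT7 and KRT13 were called higher but stayed under 0.5 CPM in all 4 libraries. Of 15 S100 and annexin genes 12 were higher and 0 lower (median log2 1.51), among them S100A10 at 20.1 and 19.1 CPM in BRG1 ERG cells, against 1.68 and 1.91 CPM in BRG1-K785R ERG cells, and its partner ANXA2 at 1020.0 and 899 CPM in BRG1 ERG cells, against 584 and 529 CPM in BRG1-K785R ERG cells. Of 19 genes of epithelial junctions 5 were higher and 2 lower (median log2 0.02), against 24.3% and 22.6% over all genes tested. Hemidesmosome and basal genes had 4 of 12 higher and 2 lower: LAMB3 rose to 4.00 and 3.97 CPM in BRG1 ERG cells, against 0.198 and 0.239 CPM in BRG1-K785R ERG cells, and PLEC (plectin) fell to 232 and 259 CPM in BRG1 ERG cells, against 307 and 346 CPM in BRG1-K785R ERG cells. Regulators of the epithelial-mesenchymal transition had 4 of 9 higher and 0 lower, with ZEB1 at 45.4 and 52.5 CPM in BRG1 ERG cells, against 26.1 and 23.5 CPM in BRG1-K785R ERG cells (log2 0.98 ± 0.10), and TWIST1 and ESRP2 not called.

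Receptors and guidance cues rose more often than they fell. Of 37 receptor kinase and ligand genes 19 were higher and 3 lower (median log2 0.36). EPHB2, an ephrin receptor, stood at 129.7 and 149.8 CPM in BRG1 ERG cells, against 33.5 and 35.1 CPM in BRG1-K785R ERG cells (log2 2.03 ± 0.08). MET, the HGF receptor, stood at 28.4 and 30.5 CPM in BRG1 ERG cells, against 9.30 and 7.59 CPM in BRG1-K785R ERG cells (log2 1.80 ± 0.12). AXL stood at 9.05 and 7.89 CPM in BRG1 ERG cells, against 0.643 and 0.477 CPM in BRG1-K785R ERG cells (log2 3.91 ± 0.22). NRG1, the neuregulin ligand of ERBB receptors, fell to 65.5 and 63.4 CPM in BRG1 ERG cells, against 182 and 173 CPM in BRG1-K785R ERG cells (log2 -1.46 ± 0.07). Of 33 semaphorin, plexin and other guidance genes 19 were higher and 3 lower (median log2 0.32). NRP1, a co-receptor of semaphorins and VEGF, stood at 10.7 and 12.7 CPM in BRG1 ERG cells, against 0.544 and 0.525 CPM in BRG1-K785R ERG cells (log2 4.44 ± 0.26), while SEMA3D was among the largest falls at 57.0 and 54.1 CPM in BRG1 ERG cells, against 177 and 154 CPM in BRG1-K785R ERG cells (log2 -1.57 ± 0.08). WNT genes had 8 higher and 10 lower of 31, and Notch genes 8 higher and 7 lower of 20. Over all genes tested 24.3% were called higher and 22.6% lower. The Notch ligand DLL4 rose to 16.6 and 16.2 CPM in BRG1 ERG cells, against 7.42 and 7.26 CPM in BRG1-K785R ERG cells. JAG1 fell to 88.6 and 88.3 CPM in BRG1 ERG cells, against 212 and 209 CPM in BRG1-K785R ERG cells (log2 -1.25 ± 0.07).

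**Figure D4:**
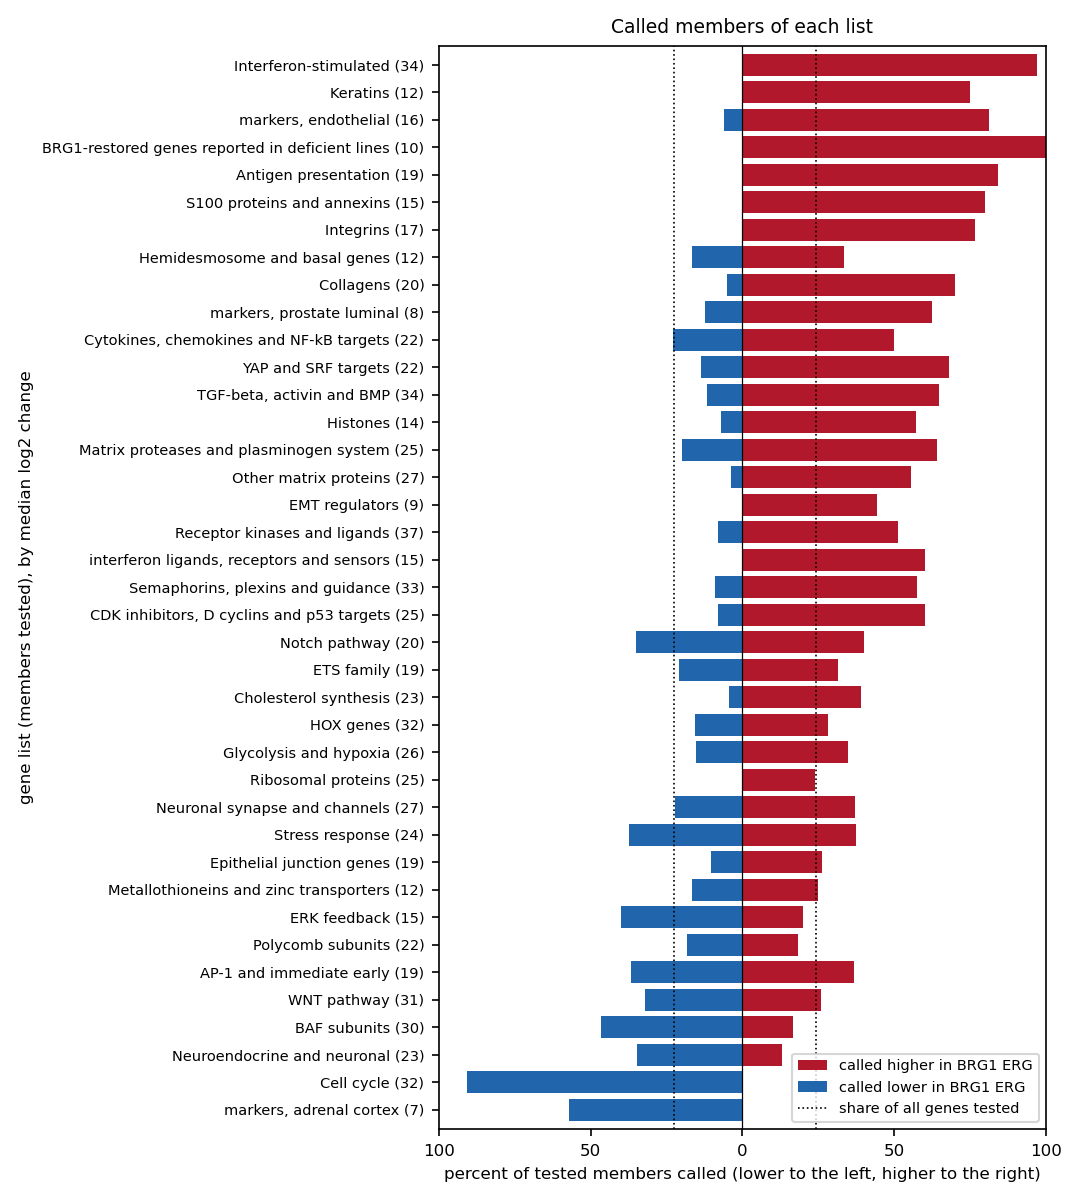
Bars give the percent of tested members of each gene list called higher (red, right) or lower (blue, left) in BRG1 ERG against BRG1-K785R ERG cells, for lists with 7 or more tested members, ordered by median log2 change, and dotted lines give the shares over all genes (24.3% and 22.6%). Interferon-stimulated genes stand at the top with 33 of 34 higher, and cell cycle genes near the bottom with 29 of 32 lower.

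Cell division genes fell together and by little. Of 32 cell cycle genes 29 were lower and 0 higher, with a median log2 change of -0.53, against 22.6% lower and 24.3% higher over all genes. MCM7, a subunit of the replicative helicase, stood at 343 and 315 CPM in BRG1 ERG cells, against 543 and 516 CPM in BRG1-K785R ERG cells (log2 -0.69 ± 0.07, adjusted p = 2.17e-09). CDC25A, the phosphatase that starts S phase, stood at 20.4 and 21.0 CPM in BRG1 ERG cells, against 43.4 and 36.8 CPM in BRG1-K785R ERG cells (log2 -0.95 ± 0.09). PLK1, the mitotic kinase, stood at 69.4 and 53.8 CPM in BRG1 ERG cells, against 106 and 104 CPM in BRG1-K785R ERG cells (log2 -0.78 ± 0.09). E2F1 stood at 59.8 and 58.8 CPM in BRG1 ERG cells, against 90.3 and 98.7 CPM in BRG1-K785R ERG cells (log2 -0.67 ± 0.08). CCNB2, CDC25C and PCNA were not called. In bulk RNA, fewer dividing cells and less RNA per cell cannot be told apart.

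Of 25 genes for CDK inhibitors, D cyclins and p53 targets 15 were higher and 2 lower (median log2 0.31). The list mixes genes that restrain division with D cyclins, which drive it, and with p53 targets of other roles. CDKN1A (p21) stood at 20.5 and 23.8 CPM in BRG1 ERG cells, against 9.75 and 9.93 CPM in BRG1-K785R ERG cells (log2 1.17 ± 0.14). GADD45A, a stress-induced growth arrest gene, stood at 27.4 and 28.0 CPM in BRG1 ERG cells, against 5.20 and 5.68 CPM in BRG1-K785R ERG cells (log2 2.35 ± 0.13). BTG2, an antiproliferative gene, stood at 53 and 57.0 CPM in BRG1 ERG cells, against 14.1 and 14.7 CPM in BRG1-K785R ERG cells (log2 1.93 ± 0.10). RB1 stood at 72.4 and 75.4 CPM in BRG1 ERG cells, against 42.1 and 41.0 CPM in BRG1-K785R ERG cells (log2 0.83 ± 0.08). MDM2, BAX and TP53I3, also p53 targets, were not called.

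The largest falls were modest beside the largest rises. TERT, the catalytic subunit of telomerase, stood at 3.11 and 2.85 CPM in BRG1 ERG cells, against 13.2 and 15.4 CPM in BRG1-K785R ERG cells and 13.7 and 13.5 CPM in GFP ERG cells (log2 -2.26 ± 0.16 against BRG1-K785R ERG, adjusted p = 2.70e-13). PI15, a secreted peptidase inhibitor, stood at 134 and 127 CPM in BRG1 ERG cells, against 476 and 435 CPM in BRG1-K785R ERG cells (log2 -1.81 ± 0.08). NTS (neurotensin) stood at 158 and 111 CPM in BRG1 ERG cells, against 491 and 432 CPM in BRG1-K785R ERG cells (log2 -1.78 ± 0.10). RGS4, which ends G-protein signals, stood at 11.9 and 10.4 CPM in BRG1 ERG cells, against 42.8 and 37.0 CPM in BRG1-K785R ERG cells (log2 -1.84 ± 0.12). Groups that did not overlap were a condition for being among the 15, so the gap between groups for TERT, PI15, NTS and RGS4 is a description. The remaining falls of the 15 were HES7, SLC22A31, BHLHE40, ZNF239, ADM5, SFRP4, ETV4, TMEM145, EGR1, SEMA3D and KCNJ2.

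AP-1 and immediate early genes, which answer growth signals, went both ways, with 7 higher and 7 lower of 19. EGR1, an immediate early factor among the 15 largest falls, stood at 19.4 and 22 CPM in BRG1 ERG cells, against 58.6 and 66.5 CPM in BRG1-K785R ERG cells (log2 -1.60 ± 0.11). MYC stood at 50.2 and 52.5 CPM in BRG1 ERG cells, against 126 and 136 CPM in BRG1-K785R ERG cells (log2 -1.35 ± 0.08). JUN, a subunit of AP-1, stood at 80.4 and 88.8 CPM in BRG1 ERG cells, against 24.1 and 27.1 CPM in BRG1-K785R ERG cells (log2 1.72 ± 0.09). ATF3 stood at 16 and 14.7 CPM in BRG1 ERG cells, against 2.52 and 3.01 CPM in BRG1-K785R ERG cells (log2 2.47 ± 0.18). FOS, FOSB and FOSL1 were not called. Of 15 ERK feedback genes 3 were higher and 6 lower: DUSP6, the phosphatase of ERK, fell to 318 and 289.8 CPM in BRG1 ERG cells, against 504 and 491 CPM in BRG1-K785R ERG cells (log2 -0.71 ± 0.07). ETS factors, the construct among them, had 6 higher and 4 lower of 19, near the 24.3% higher and 22.6% lower over all genes tested. ETV4 fell to 16.3 and 16.5 CPM in BRG1 ERG cells, against 50.5 and 49.4 CPM in BRG1-K785R ERG cells (log2 -1.61 ± 0.09). ETV1 stood at 50.6 and 50.5 CPM in BRG1 ERG cells, against 92.6 and 86.8 CPM in BRG1-K785R ERG cells (log2 -0.83 ± 0.07), while ETV6 rose to 43.8 and 47.3 CPM in BRG1 ERG cells, against 28.0 and 28.5 CPM in BRG1-K785R ERG cells (log2 0.69 ± 0.09).

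Genes of the BAF complex, SMARCA4 and SMARCA2 among them, were lower more often than higher, at 14 and 5 of 30 tested (median log2 -0.18). ARID1A, the large subunit that is often mutated in cancer, fell to 140.4 and 152 CPM in BRG1 ERG cells, against 209.9 and 239 CPM in BRG1-K785R ERG cells (log2 -0.62 ± 0.07). ARID2 of the PBAF form stood at 65.5 and 66.2 CPM in BRG1 ERG cells, against 82.7 and 90.1 CPM in BRG1-K785R ERG cells (log2 -0.39 ± 0.07). Polycomb genes, whose complexes oppose BAF, had 4 higher and 4 lower of 22, against 24.3% higher and 22.6% lower over all genes tested. JARID2 rose to 109 and 125 CPM in BRG1 ERG cells, against 61.2 and 57.5 CPM in BRG1-K785R ERG cells (log2 0.98 ± 0.08). PCGF2 fell to 71.7 and 64.5 CPM in BRG1 ERG cells, against 108 and 113 CPM in BRG1-K785R ERG cells (log2 -0.70 ± 0.08). Neuroendocrine and neuronal genes fell more often than they rose, at 8 and 3 of 23 (median log2 -0.21). TUBB3, a neuronal tubulin, stood at 111 and 91.4 CPM in BRG1 ERG cells, against 259 and 239.5 CPM in BRG1-K785R ERG cells (log2 -1.3 ± 0.09). SYP (synaptophysin) stood at 19.9 and 16.8 CPM in BRG1 ERG cells, against 42.9 and 39.6 CPM in BRG1-K785R ERG cells (log2 -1.17 ± 0.09). UCHL1, a ubiquitin hydrolase of neurons, rose to 276 and 276 CPM in BRG1 ERG cells, against 159 and 160.3 CPM in BRG1-K785R ERG cells (log2 0.79 ± 0.07).

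Several housekeeping and metabolic lists had a median change near 0. Over all genes tested 24.3% were called higher and 22.6% lower. Ribosomal proteins had 6 of 25 higher and 0 lower with a median log2 change of 0.07, cholesterol synthesis 9 of 23 higher and 1 lower (0.12), and glycolysis and hypoxia 9 of 26 higher and 4 lower (0.07). Within the last of these SLC2A3, a glucose transporter, fell to 164 and 158 CPM in BRG1 ERG cells, against 423 and 373 CPM in BRG1-K785R ERG cells (log2 -1.3 ± 0.08), and NDRG1 rose to 19.0 and 20.4 CPM in BRG1 ERG cells, against 2.57 and 2.20 CPM in BRG1-K785R ERG cells (log2 3.05 ± 0.18). Stress response genes had 9 higher and 9 lower of 24, metallothionein and zinc transporter genes 3 and 2 of 12, HOX genes 9 and 5 of 32, and synapse and channel genes 10 and 6 of 27. Histone genes read in polyA RNA had 8 of 14 higher and 1 lower (median log2 0.55), though HIST2H4A has an identical copy whose reads cannot be told from it. Of the other marker lists, prostate luminal genes had 5 of 8 tested higher and 1 lower with a summed level of 56.5 and 60.0 CPM in BRG1 ERG cells, against 51.3 and 48.7 CPM in BRG1-K785R ERG cells. Haematopoietic genes had 2 of 3 higher and summed to 23.4 and 21.3 CPM in BRG1 ERG cells, against 16.9 and 13.1 CPM in BRG1-K785R ERG cells, and adrenal cortex genes had 4 of 7 lower and 0 higher. The row for 5.8S ribosomal RNA, RNA5-8S5, stood at 34.8 and 289.6 CPM in BRG1 ERG cells, against 26.5 and 37.0 CPM in BRG1-K785R ERG cells, and its call is lost without the second BRG1 ERG library.

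The same contrast without ERG compares 4 other libraries, which share the scaling, filter and estimate of spread of the 1 fit. Without ERG, 2672 genes (15.7%) were at least 2-fold higher in BRG1 Empty against BRG1-K785R Empty cells and 697 (4.10%) at least 2-fold lower, or 3313 and 333 with library totals as the scale. At any size 32.6% were higher and 34.1% lower, together 66.7%. Of the 1465 genes at least 2-fold higher with ERG, 988 were so without it, 67.4% of the first list and 37.0% of the second. Of the 308 at least 2-fold lower with ERG, 86 were so without it, 27.9% of the first list and 12.3% of the second. Ribosomal RNA precursor rows took 2.02% and 2.70% of reads in BRG1-K785R Empty cells, against 0.371% and 0.445% in BRG1-K785R ERG cells. With those rows left out of the fit, 2664 genes were at least 2-fold higher and 693 at least 2-fold lower in BRG1 Empty against BRG1-K785R Empty cells. The counts of other genes stay the same in that step, so other differences of the BRG1-K785R Empty libraries were not tested.

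Tested directly, the change with ERG was above the change without ERG for 4390 genes (25.8%) and below it for 3473 (20.4%), together 46.2%. With library totals as the scale these counts were 2265 and 5316. By at least 2-fold the change with ERG was above for 552 genes (3.24%) and below for 1453 (8.54%). In the interferon-stimulated list the change with ERG was above that without ERG for 7 members of 34 and below it for 6. The other 21 were not called. IFIT1, for example, stood at 119 and 141 CPM in BRG1 Empty cells, against 0.537 and 0.445 CPM in BRG1-K785R Empty cells, and its difference between the changes was 0.90 ± 0.47 on the log2 scale (adjusted p = 0.116). IFITM3, a membrane block to viral entry, had a smaller change with ERG (log2 difference -3.42 ± 0.21, adjusted p = 6.71e-14): it stood at 97.8 and 107 CPM in BRG1 ERG cells, against 28.6 and 26.1 CPM in BRG1-K785R ERG cells, and at 33.6 and 38.8 CPM in BRG1 Empty cells, against 0.909 and 0.889 CPM in BRG1-K785R Empty cells. Reads may be shared among the IFITM copies.

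Of 16 endothelial markers the change with ERG was above that without ERG for 4, a share close to the 25.8% over all genes tested. It was below for 2 (TEK and the construct ERG), and 10 were not called, several with few reads without ERG. KDR, 1 of the 4, stood at 0.715 and 1.36 CPM in BRG1 Empty cells, against 1.53 and 2.27 CPM in BRG1-K785R Empty cells, and its difference between the changes was 3.95 ± 0.38 (adjusted p = 6.79e-10). ROBO4 stood at 1.07 and 1.43 CPM in BRG1 Empty cells, against 0.0826 and 0.148 CPM in BRG1-K785R Empty cells, with a difference of 3.78 ± 1.02 (adjusted p = 0.00286) that rests on few reads in both BRG1-K785R groups. Outside the list, SGK1, a kinase induced by steroid and growth signals, stood at 31.5 and 36.1 CPM in BRG1 ERG cells, against 1.34 and 1.53 CPM in BRG1-K785R ERG cells, and at 1.75 and 1.89 CPM in BRG1 Empty cells, against 2.23 and 2.02 CPM in BRG1-K785R Empty cells (log2 difference 4.79 ± 0.31, adjusted p = 1.78e-13). EXOC3L1 followed the same pattern at 31.4 and 43.5 CPM in BRG1 ERG cells, against 2.03 and 1.53 CPM in BRG1-K785R ERG cells, and 0.929 and 0.717 CPM in BRG1 Empty cells, against 0.826 and 0.543 CPM in BRG1-K785R Empty cells (log2 difference 4.15 ± 0.48, adjusted p = 2.53e-08).

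Of 12 hemidesmosome and basal genes the change with ERG was below that without ERG for 4 and above it for 0. Over all genes tested it was below for 20.4% and above for 25.8%, the shares to hold beside each list count that follows. COL17A1, the collagen of hemidesmosomes, stood at 4.24 and 3.81 CPM in BRG1 ERG cells, against 0.742 and 0.621 CPM in BRG1-K785R ERG cells, and at 42.6 and 39.3 CPM in BRG1 Empty cells, against 0.578 and 0.494 CPM in BRG1-K785R Empty cells (log2 difference -3.68 ± 0.46, adjusted p = 1.16e-07). LAMB3 had a log2 difference of -4.62 ± 0.90 (adjusted p = 0.000101) and IGFN1 of -6.17 ± 0.82 (adjusted p = 3.25e-07), both with few reads in BRG1-K785R Empty cells, so that the sizes are uncertain. For 9 of 20 collagen genes the change with ERG was below that without ERG, and for 1, COL5A2, it was above. For 12 of 14 histone genes and 21 of 24 stress response genes the change with ERG was above that without ERG, and for 0 below. Stress response genes had a median log2 change of 0.03 with ERG and -0.97 without it, where 20 of 24 were lower. They summed to 18808 and 18472 CPM in BRG1-K785R Empty cells, against 9556 and 8994.5 CPM in BRG1 Empty cells and 12427 and 11199 CPM in BRG1-K785R ERG cells. Histone genes also had their highest sums in BRG1-K785R Empty cells, at 298 and 282 CPM. ASNS (asparagine synthetase) stood at 134 and 131 CPM in BRG1 Empty cells, against 463 and 426 CPM in BRG1-K785R Empty cells. For 4 of 32 cell cycle genes the change with ERG was above that without ERG, for 7 it was below, and 21 were not called. These genes were mostly lower in both contrasts, 29 of 32 with ERG and 24 of 32 without it.

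**Figure D5:**
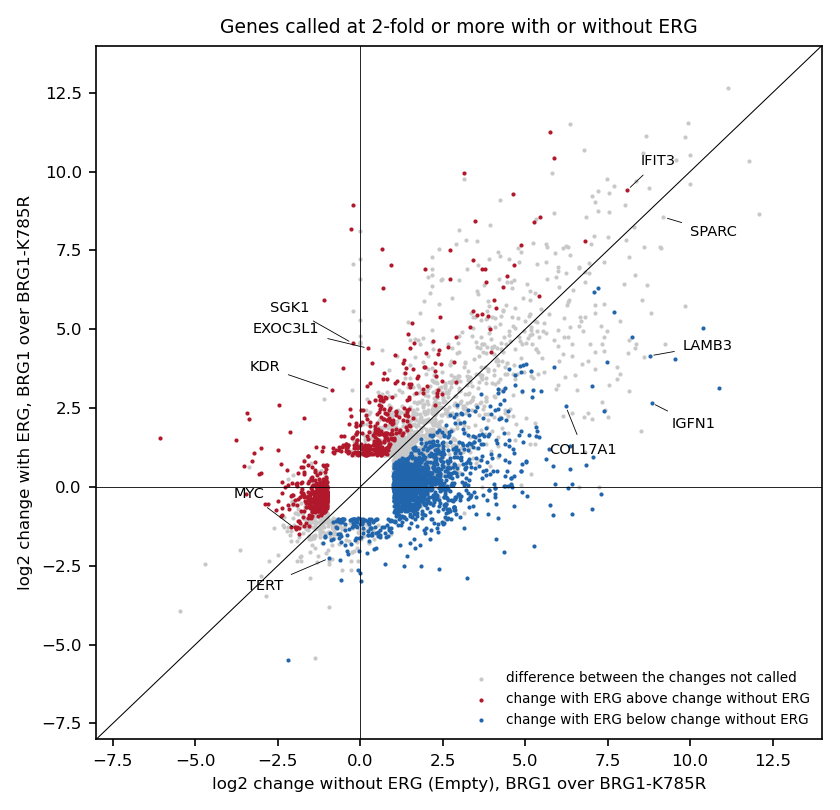
Each point is 1 of 4042 genes called at 2-fold or more in either contrast, with the log2 change with ERG (BRG1 over BRG1-K785R) on the y axis and without ERG on the x axis. Red points (833) have a change with ERG above that without ERG and blue points (1498) one below it by the test of the difference, SGK1, EXOC3L1 and KDR lie near 0 on the x axis, and IGFN1, COL17A1 and LAMB3 lie below the line of equal change.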

How the data were processed

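Raw counts per gene, as the authors deposited them, were used for the 12 SW13 libraries. The submitters' processing notes name STAR 2.3.1 and hg19. How reads were assigned to genes, and whether by strand, is not given in the sources used, so overlapping antisense genes and near-identical copies cannot be separated. The deposited RPKM values equal those counts scaled by the total and the gene length column of each file, and were used only as a check.

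One edgeR 4.0.16 quasi-likelihood fit (R 4.3.3) of 6 groups, with TMM scaling and the filterByExpr filter, tested 17018 genes with 6 residual degrees of freedom and a common biological coefficient of variation of 0.0571. Approximate SE is the log2 change over the square root of F. P-values were adjusted by the Benjamini-Hochberg method over all genes tested. DESeq2 1.42.0, other scalings, no filter, only the groups compared, left-out libraries and a replicate block were alternatives. On simulated counts with known changes, 72.6%, 96.9% and 100% of changed genes were recovered at 1.5-, 2- and 4-fold in BRG1 ERG against BRG1-K785R ERG (16825 genes), with 9 of 190 calls false. Only 62, 65 and 73 genes were changed there, none at very low levels, and draws used the fit's own spread. These rates do not describe genes near 0 reads or a contrast with 47.0% of genes called.

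A floor of 3 counts per library set bounds where both BRG1-K785R ERG libraries had 0 reads, and ratios with 1 to 10 reads in a group carry 95% intervals that cover counting error only. Library depth was 19754265 to 26595972 counts, and duplicates differed by more than sampling noise (chi-square over degrees of freedom 11.4 in BRG1 ERG and 6.79 in BRG1-K785R ERG). The labels state separate infections for duplicates and tie no number to a shared batch.

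The members and 40 gene lists were chosen with earlier results of these data known. Genes named by rule were both constructs and SMARCA2, the 15 largest rises and falls, up to 4 called members of each list by smallest adjusted p, and the 5 largest differences each way between the changes with and without ERG. Other members of the lists, the near-silent genes, the interferon motif, and the lists of interferon ligands, receptors and sensors and of the APOL cluster were chosen after values were seen. Promoters came from RefSeq GRCh38.p14 by symbol, and no coordinate was moved between builds. Protein sequences were not used here, and some members of the lists are not reported here by name.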

Additional observations from a re-analysis of the deposited data

Results flagged for a closer look

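The differences below were named because the BRG1 minus BRG1-K785R change itself differed with and without ERG, by edgeR's test of that difference. They are values of the fit, on the log2 scale, and positive where the change with ERG lay above that without ERG. In all, 4390 genes lay above 0 and 3473 below it.

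Larger with ERG were APOL3 (5.53, adjusted p = 0.0033), SGK1 (4.79, adjusted p = 1.78e-13), KIAA1210 (4.64, adjusted p = 0.0271), CPA4 (4.56, adjusted p = 0.0105) and EXOC3L1 (4.15, adjusted p = 2.53e-08). APOL3 had 1 and 0 reads in BRG1-K785R ERG cells, and KIAA1210 had 0 and 2. Without the first BRG1-K785R Empty library the difference was 1.73 for APOL3 (adjusted p = 0.886) and 1.39 for KIAA1210 (adjusted p = 0.862), both no longer called. KIAA1210 also lost its call without the first BRG1-K785R ERG library (3.74, adjusted p = 0.0610), and CPA4 without either BRG1-K785R ERG library (adjusted p = 0.0628 and 0.0754). CPA4, a carboxypeptidase, stood at 7.65 and 6.89 CPM in BRG1 ERG cells with 0 reads in both BRG1-K785R ERG libraries, and at 69.3 and 66.2 CPM in BRG1 Empty cells, against 1.32 and 0.938 CPM in BRG1-K785R Empty cells, so the size of its difference depends on the fit's prior count. SGK1 and EXOC3L1 had at least 11 reads in each of the 8 libraries.

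Smaller with ERG were IGFN1 (-6.17, adjusted p = 3.25e-07), LAMB3 (-4.62, adjusted p = 0.000101), ERG (-4.33, adjusted p = 0.0293), COL17A1 (-3.68, adjusted p = 1.16e-07) and IFITM1 (-3.52, adjusted p = 1.74e-06). ERG is the construct, read at 0.214 and 0.0377 CPM in BRG1 Empty cells, against 0 reads in BRG1-K785R Empty cells, and its difference lost the call without the first BRG1 Empty library (-2.67, adjusted p = 0.304), without either BRG1-K785R Empty library (adjusted p = 0.134 and 0.104) and with DESeq2 (adjusted p = 0.0512). IFITM1, whose reads may be shared with its copies, stood at 37.2 and 37.2 CPM in BRG1 ERG cells, against 2.47 and 2.29 CPM in BRG1-K785R ERG cells, and at 18.5 and 23.7 CPM in BRG1 Empty cells, against 0.0413 and 0.198 CPM in BRG1-K785R Empty cells. Ribosomal RNA precursor rows held a larger share of the BRG1-K785R Empty libraries than of the others compared. With those rows left out of the fit, all 10 differences kept their direction and their call (IGFN1 at -6.17 and COL17A1 at -3.68), and 4386 genes lay above 0 and 3475 below it. That step leaves the counts of all other genes as they were. It cannot test whether the BRG1-K785R Empty libraries differ in other ways.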

How the results depend on the processing

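Counts of genes called in BRG1 ERG against BRG1-K785R ERG stayed within 1.5 times the reported ones under every alternative run. Genes higher (4138 reported) were 3505 with DESeq2, 3900 with library totals and 3572 with only the groups compared, and 3549 to 3808 with any 1 of the 4 libraries left out. Genes lower (3854 reported) were 3386, 4139 and 3294 in the same order, and 2917 to 3361 with 1 library left out. Library totals as the scale moved the median log2 change of all genes by little here, but to 0.22 in BRG1 Empty against BRG1-K785R Empty and to -0.18 in the difference with and without ERG. Under that scale 3848 genes were lower without ERG and 333 at least 2-fold lower, and the difference was higher for 2265 genes, lower for 5316 and at least 2-fold higher for 299, so the split of the difference depends on the scale.

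With the replicate number as a block, 4114 genes were higher and 3830 lower, and 1450 and 296 at least 2-fold so. Same-numbered libraries of BRG1 ERG and BRG1-K785R ERG had deviations correlated at 0.386, the highest of all pairs of groups. Other pairs ran from -0.278 to 0.352. The labels tie no number to a shared batch, so the numbers are not read as pairs. Shared handling of same-numbered libraries in the compared groups was not tested, since the block is a common term over all 6 groups.

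Of 2194 values for single genes, 2170 kept direction and call, and 24 lost the call (SNAI1, RPL10, RPS6, RPS14, RNA5-8S5, FDX1, MRAP, NR0B1 and CD68), the cause of which was not tested. RNA5-8S5 fell to a log2 change of 0.14 without the second BRG1 ERG library. The differences of APOL3, KIAA1210, CPA4 and ERG lost the call as given above. Of 960 list counts 893 stayed within 1.5 times.

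With 2 libraries a group, tests rest on a spread shared over 6 groups, and p-values speak of these cultures of 1 line. Genes near 0 reads in 1 group have bounds or wide ratios. Construct RNA differed between the groups.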

Other observations

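Some genes outside the lists were near silent in BRG1-K785R ERG cells, as chosen after their values were seen. MYOC (myocilin) stood at 17.4 and 17.3 CPM in BRG1 ERG cells, against 0.396 and 0.143 CPM in BRG1-K785R ERG cells, and at 0.143 and 0.226 CPM in BRG1 Empty cells. GABRP, a subunit of the GABA-A receptor, stood at 5.52 and 4.81 CPM in BRG1 ERG cells with 0 reads in both BRG1-K785R ERG libraries, and was at least 35.4-fold higher. CD53, a tetraspanin of blood cells, stood at 7.93 and 8.93 CPM in BRG1 ERG cells, against 0.148 and 0.191 CPM in BRG1-K785R ERG cells, while PTPRC, the pan-leukocyte marker, stood at 0.971 and 0.924 CPM in BRG1 ERG cells, against 0.742 and 1.58 CPM in BRG1-K785R ERG cells. SLC26A4, the anion exchanger pendrin, stood at 4.27 and 6.16 CPM in BRG1 ERG cells, against 0.495 and 0.477 CPM in BRG1-K785R ERG cells.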
